A study of Mus musculus with 10 samples.

Results

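The interleukins and their receptors were followed in mouse testis cells selected for spermatogonial stem cells, from which all sperm descend, while the selected cells were brought into culture. Members were chosen by name, as every gene of the table whose symbol starts with Il and a number. This took in 82 of 21969 genes, of which 36 encode ligands, 38 receptor subunits, 7 inhibitors or decoy receptors and 1 (Il4i1) a secreted enzyme that oxidizes amino acids. The animals were of the inbred DBA/2 strain, with no mutation or transgene given. Week 0 was adult testis cells collected with magnetic beads coated with an antibody to CD9, a surface protein of spermatogonial stem cells that other testis cells can carry too. Weeks 1, 2 and 3 were such cells kept in an Iscove's-based medium with human FGF2 at 10 ng/ml, rat GDNF at 15 ng/ml and 1% fetal bovine serum. GS cells, the long-term cultures of spermatogonial stem cells of the same strain, were kept in the same medium and formed the last group. Each of these 5 groups had 2 RNA-seq libraries made from poly(A) RNA. The sources used here do not say whether feeder cells or other agents were present, nor that the libraries of a group came from separate animals or cultures. A p-value here therefore speaks only of the spread from library to library, and that spread may be technical.

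Interleukins are secreted proteins by which cells, mainly of the immune system and of connective tissue, act on one another. Members of the IL-1 family (IL-1, IL-18, IL-33 and IL-36) and of the IL-17 family act through receptors that lead to the transcription factor NF-kappa B, whereas IL-6, IL-11, IL-4, IL-13 and most others act through receptors that lead to JAK kinases and STAT factors. Receptor chains are shared: Il1rap serves several IL-1 family receptors, Il6st (gp130) those of IL-6 and IL-11, and Il4ra those of IL-4 and IL-13. In the testis, Sertoli cells and macrophages are known sources of IL-1 and IL-6.

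Depth, read from the steps of the deposited FPKM values (fragment counts relative to transcript length and to library size), was 10.35 to 21.07 M reads (M, mega) per library. Replicates of a group correlated across genes at r of 0.987 to 0.993. The labelled cell type was checked against 17 markers of undifferentiated spermatogonia, whose summed FPKM was 434.1 to 444.7 at week 0, 842.7 to 852 in week 1, 1460 to 1497 in week 2, 1484 to 1576 in week 3 and 1561 to 1628 in GS cells. The 12 markers of spermatocytes and spermatids summed to 27240 to 28580 FPKM in the week 0 libraries, 250.3 to 283.4 in those of week 1 and 142.2 to 163.4 in GS cells. Markers of fibroblasts and extracellular matrix (16 genes) summed to 1182 to 1377 at week 0, 8921 to 9007 at week 1, 920.4 to 964.5 in week 2, 435.8 to 873.4 in week 3 and 796.8 to 820.6 in GS cells. All 16 of these rose at week 1 against week 0 and all 16 fell at week 2 against week 1. Macrophage markers (15 genes) summed to 124.9 to 152.7 at week 0 and to between 19.45 and 32.61 in all later groups. The spermatocyte and spermatid sums at week 0, and the fibroblast and matrix sums at week 1, thus exceeded those of undifferentiated spermatogonia. Values of weeks 0 and 1 are therefore not those of spermatogonial stem cells alone. In week 2, week 3 and GS cells the fibroblast and matrix sums were below those of undifferentiated spermatogonia, but these markers were still detected. Values of these later groups may thus be mixed too, and which cells gave them was not tested.

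Of the 82 members, 46 reached FPKM 1 in at least 2 libraries and could be tested. They comprised 16 ligands, 25 receptor subunits, 4 inhibitors and the enzyme. The mean was highest at week 1 for 23 of these 46, at week 0 for 15, at week 2 for 1 (Il17rd), at week 3 for 1 (Il15) and in GS cells for 6. A mean FPKM of 10 or more was reached by 6 members in week 0, 17 in week 1, 8 in week 2, 5 in week 3 and 8 in GS cells. Changes below are on the scale of log2(FPKM + 1), which understates the change of low genes. They come from limma with Benjamini-Hochberg adjustment over the 15671 genes tested, and a gene is said to have risen or fallen where the adjusted p was under 0.05. A member that reached the minimum level only through the group where it is high had to differ, so counts over the 46 describe the members and are not tests. The p-values and calls of such members are likewise descriptions. Among them are Il1a, Il13ra2, Il1f6, Il1f9, Il1rl2, Il7 and Il19, through week 1, and Il17re, through week 0.

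**Figure D1:**
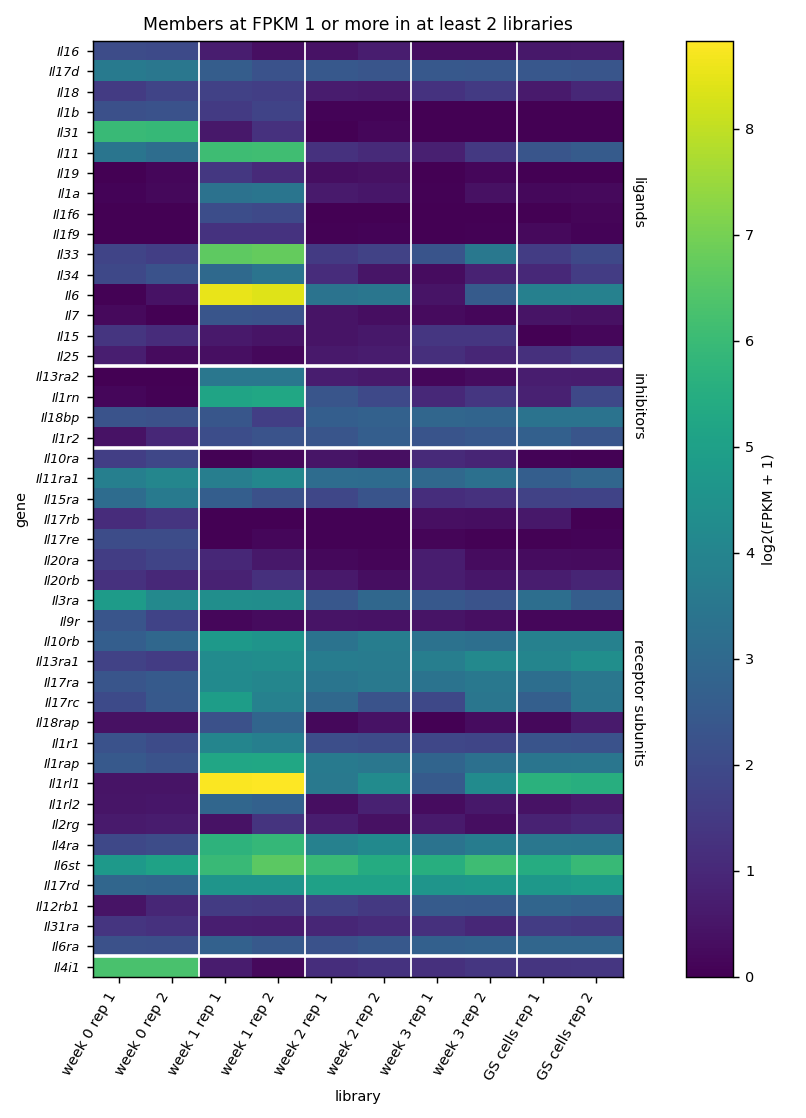
Levels of the 46 tested members in the 10 libraries, as log2(FPKM + 1) on a linear colour scale; rows are genes by role (ligands, inhibitors, receptor subunits, and Il4i1 at the foot) and, within a role, by the group in which the mean was highest, and columns are libraries. Il6 and Il1rl1 stand out at week 1, Il31 and Il4i1 at week 0, and Il6st and Il17rd stay at or above FPKM 20 in every cultured library.

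At week 1 the highest levels of all members were those of Il6 (chr5:30013114-30019981, plus strand), a cytokine gene of inflammation and repair, and Il1rl1 (chr1:40429570-40465415, plus strand), the receptor of IL-33, also called ST2. Coordinates are of GRCm38, and all members located here are protein-coding genes. Il6 had 372 and 339 FPKM at week 1, against 0.0451 and 0.351 at week 0. Its level was then 9.23 and 10.1 in week 2, 0.366 and 4.75 in week 3, and 13.5 and 13.6 in GS cells. The week 1 libraries stood far above all others, the 2 week 3 libraries lay apart from each other, and both GS libraries lay above both of week 3. Il6 rose by 8.23 (SE 0.54, limma adjusted p = 1.42e-06) at week 1 against week 0 and fell by 5.06 (SE 0.54, limma adjusted p = 0.000114) at week 2 against week 1.

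Il1rl1 had 439 and 454 FPKM at week 1, against 0.395 and 0.390 at week 0, a ratio of means of 1139. It was at 10.9 and 18.2 in week 2, 4.71 and 18.4 in week 3, and 49.0 and 45.8 in GS cells, so every cultured library lay above both of week 0. The rise at week 1 was 8.33 (SE 0.48, limma adjusted p = 6.46e-07). Its ligand Il33 (chr19:29925114-29960718, plus strand), an alarm signal that is kept in the nucleus of barrier and stromal cells and released on damage, had 99.3 and 106 FPKM at week 1, against 2.55 and 2.08 at week 0. It was at 1.83 and 2.38 in week 2, 3.92 and 10.6 in week 3, and 1.94 and 2.73 in GS cells. Il33 rose by 4.97 (SE 0.35, limma adjusted p = 2.16e-06) and then fell by 5.07 at week 2 against week 1 (SE 0.35, limma adjusted p = 1.17e-05). Receptor and ligand thus had their highest level in the same group. In GS cells 1 library lay below and 1 above both week 0 libraries for Il33, with a difference of 0.00 (limma adjusted p = 0.995) that became 1.03 after quantile normalization (adjusted p = 0.0149), while Il1rl1 was 5.12 higher than at week 0 (SE 0.48, limma adjusted p = 1.46e-05).

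The promoters of these members are shown for matches to a kappa B pattern and an AP-1 pattern, letters that NF-kappa B and AP-1 are known to bind. Il6 and Il1rn, the gene of the soluble antagonist of IL-1, hold both patterns in their promoters. Il1rl1, with a rise as large as that of Il6, holds neither pattern. Other letters that these factors may bind were not searched. Sequences are from RefSeq (GRCm38.p6), run from 250 bases before to 50 bases after a transcript start, and are on the plus strand of chr5:30012864-30013163 for Il6, chr2:24336610-24336909 for the first of 3 Il1rn starts and chr1:40439379-40439678 for the second of 2 Il1rl1 starts. Capitals mark matches to the kappa B letters (GGG, any 3 bases, TTCC) or the AP-1 letters (TGANTCA).
Il6: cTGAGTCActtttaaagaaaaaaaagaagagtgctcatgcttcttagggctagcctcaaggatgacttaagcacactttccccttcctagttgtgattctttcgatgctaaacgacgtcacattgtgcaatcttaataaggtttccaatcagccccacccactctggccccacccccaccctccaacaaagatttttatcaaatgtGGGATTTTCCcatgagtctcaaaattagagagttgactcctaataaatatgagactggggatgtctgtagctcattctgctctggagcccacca
Il1rn: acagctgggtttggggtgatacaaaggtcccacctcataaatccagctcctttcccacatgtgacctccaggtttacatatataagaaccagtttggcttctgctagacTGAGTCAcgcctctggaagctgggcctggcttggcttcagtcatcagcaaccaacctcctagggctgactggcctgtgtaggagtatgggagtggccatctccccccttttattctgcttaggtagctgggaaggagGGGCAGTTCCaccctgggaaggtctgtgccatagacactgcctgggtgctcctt
Il1rl1: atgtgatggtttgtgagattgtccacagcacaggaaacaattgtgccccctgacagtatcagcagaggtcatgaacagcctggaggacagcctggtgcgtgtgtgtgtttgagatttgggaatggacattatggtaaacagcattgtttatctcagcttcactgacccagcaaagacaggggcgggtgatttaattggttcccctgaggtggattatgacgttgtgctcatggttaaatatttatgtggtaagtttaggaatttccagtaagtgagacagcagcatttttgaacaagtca

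Each motif was searched on both strands, and matches to the kappa B, AP-1 and STAT letters (TTCNNNGAA) did not overlap in these windows. In the Il6 window the kappa B match begins at position -44 from the start and the AP-1 match near the far end of the window. In the Il1rn window they begin at -4 and -141. Neither Il1rl1 window holds any of the 3, which says only that these letters are not in these windows. RefSeq windows were found for 65 of the 82 members, 80 windows in all, and for 20 of the 26 members that rose at week 1. A kappa B match lay in 5.56% of all 32851 windows, in 15.0% of the member windows and in 26.9% of the 26 windows of the members that rose at week 1. An AP-1 match lay in 7.81%, 17.5% and 19.2% of the same 3 sets, and a STAT match in 8.3%, 12.5% and 11.5%. Some genes have several windows that overlap, so a gene can be counted more than once. Il1rn has a kappa B match in each of its windows, and 1 of these sites lies in overlapping windows. By gene, a kappa B match was found in 5 of the 20 members that rose at week 1, an AP-1 match in 5 and a STAT match in 3. Over the 65 members with windows these counts were 10, 14 and 10, and over all 27025 genes 1704, 2425 and 2582. A match is a description of letters, not of binding.

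Over the 46 tested members, 26 rose (56.5%) and 13 fell (28.3%) at week 1 against week 0. Of all genes tested, 80.3% were called in this comparison, 36.3% higher and 44.0% lower. The median change was 1.16 for the members and -0.14 for all genes. Quantile normalization moved the median of all genes to 0.35 and made the split 29 members higher and 8 lower. In bulk RNA, fewer cells of a type and less RNA per cell cannot be told apart, and the composition of the libraries changed between these groups as given above for the marker lists. The fibroblast and matrix markers moved in the same direction as most members (16 of 16 higher), and the macrophage markers in the other (1 higher and 9 lower of 12 tested). Their part in the result was not tested.

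**Figure D2:**
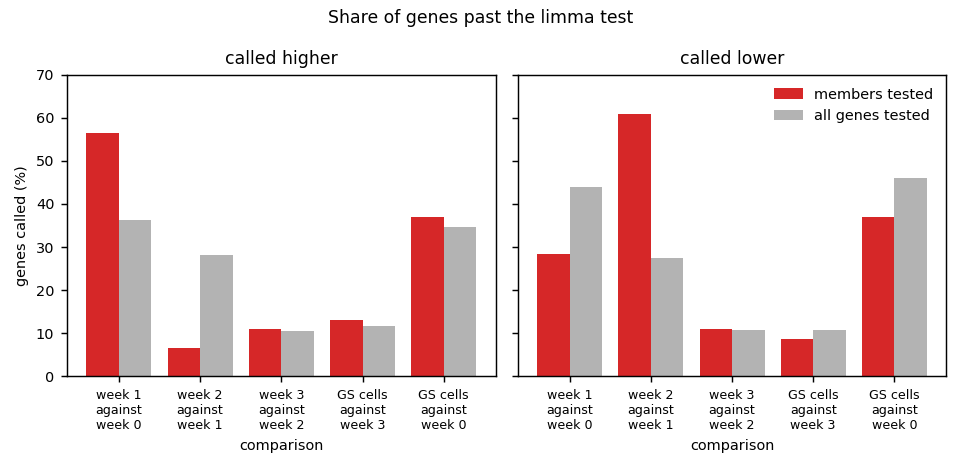
Share of the 46 tested members (red) and of all 15671 tested genes (grey) that rose (left) or fell (right) at a limma adjusted p under 0.05, in percent, for each of the 5 comparisons. The members exceed all genes among those higher at week 1 (56.5% against 36.3%) and among those lower at week 2 (60.9% against 27.4%), and lie near them at week 3 against week 2.

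Among the ligands, 9 of the 16 tested rose at week 1 and 5 fell, where 36.3% of all genes rose and 44.0% fell. Il11, an IL-6 relative that acts on stromal cells through Il11ra1 and gp130, had 66.7 and 68.1 FPKM at week 1, against 9.88 and 7.83 at week 0. It was at 1.39 and 1.06 in week 2, 0.698 and 1.79 in week 3, and 4.08 and 4.80 in GS cells, so that all later libraries lay below both of week 0. Il11 rose by 2.80 at week 1 (SE 0.23, limma adjusted p = 6.56e-06) and fell by 4.95 at week 2 against week 1 (SE 0.23, limma adjusted p = 2.10e-06). Il1a, which encodes IL-1 alpha, had 9.16 and 9.84 FPKM at week 1, against 0.0545 and 0.134 at week 0, and no library of week 2, week 3 or GS cells exceeded 0.546. It rose by 3.26 (SE 0.13, limma adjusted p = 6.17e-08) and fell again by 2.80 at week 2 (SE 0.13, limma adjusted p = 1.88e-06).

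The IL-36 ligands Il1f6 and Il1f9, which act on epithelia through Il1rl2, were listed at 0 in both week 0 libraries. At week 1 they had 3.23 and 2.86 FPKM (Il1f6) and 1.45 and 1.48 FPKM (Il1f9). Il1rl2 itself had 6.48 and 5.72 FPKM at week 1, against 0.422 and 0.455 at week 0, and lay under FPKM 1 in all later libraries. Il7, a growth factor of lymphocytes, had 3.97 and 3.75 FPKM at week 1, against 0.161 and 0 at week 0. Il34, a ligand of the macrophage receptor Csf1r, had 7.17 and 9.64 FPKM at week 1, against 2.77 and 3.68 at week 0, and it fell by 2.42 at week 2 (SE 0.30, limma adjusted p = 0.000243). Il19, a relative of IL-10, had 1.68 and 1.09 FPKM at week 1, against 0 and 0.117 at week 0. All 6 of these genes rose at week 1 and fell at week 2, with the rise of Il34 lost without week 0 replicate 1 (adjusted p = 0.0695).

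Inhibitors of IL-1 and IL-13 were raised at week 1, as was Il1a. Il1b, in contrast, fell on the values as deposited, and Il13 was listed at 0 in both week 1 libraries. Il1rn had 34.7 and 37.5 FPKM at week 1, against 0.108 and 0.0348 at week 0. It then had 3.97 and 2.84 in week 2, 1.04 and 1.63 in week 3, and 0.758 and 2.79 in GS cells. The rise was 5.11 (SE 0.33, limma adjusted p = 1.21e-06), and at week 1 the antagonist stood above Il1a and Il1b in both libraries on the per-length FPKM scale. Il13ra2, a decoy receptor for IL-13, was listed at 0 in both week 0 libraries and had 10.4 and 10.3 FPKM at week 1. It fell by 2.85 at week 2 (SE 0.10, limma adjusted p = 9.30e-07) and ranged from 0.103 to 0.640 in all later libraries. Il1r2, a decoy receptor for IL-1, had 3.28 and 3.82 FPKM at week 1, against 0.340 and 0.975 at week 0. It did not pass the test at week 2, where it had 4.01 and 5.18, and it had 5.60 and 4.04 in GS cells. Il18bp, which binds and blocks IL-18, did not pass the test at week 1 but was higher in GS cells, at 9.41 and 9.33 FPKM against 3.82 and 3.59 at week 0. All 4 inhibitors tested were higher in GS cells than at week 0, a comparison in which 34.7% of all genes were higher and 80.6% were called, though Il1rn missed the threshold without week 0 replicate 2 (adjusted p = 0.057).

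Of the 25 receptor subunits tested, 14 rose and 7 fell at week 1, where 36.3% of all genes rose and 44.0% fell. Il4ra (chr7:125552120-125579474, plus strand), the signalling chain for IL-4 and IL-13, had 51.5 and 58.6 FPKM at week 1, against 2.74 and 3.11 at week 0. It was at 13.9 and 17.1 in week 2, 9.30 and 12.0 in week 3, and 10.5 and 10.2 in GS cells, above week 0 in every cultured library. It rose by 3.84 (SE 0.15, limma adjusted p = 6.73e-08). Its partner for IL-13, Il13ra1, had 18.0 and 19.0 FPKM at week 1, against 2.34 and 1.94 at week 0, and it had 12.1 and 11.8 in week 2 and 15.1 and 19.4 in GS cells. The ligands of this pair were low, since Il13 had at most 1.25 FPKM (at week 0) and Il4 at most 0.29.

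Both chains of the IL-1 receptor rose at week 1. Il1r1, which binds IL-1, had 15.1 and 12.9 FPKM at week 1, against 3.67 and 3.06 at week 0, and its partner Il1rap had 36.4 and 37.2 FPKM, against 4.47 and 3.79. Il1rap rose by 2.88 (SE 0.15, limma adjusted p = 3.27e-07). The genes Il1r2, Il1r1, Il1rl2, Il1rl1, Il18r1 and Il18rap lie next to each other at chr1:40074079-40551705 (GRCm38). The 5 of them that were tested all rose at week 1, and Il18r1, below the minimum level, was highest in a week 1 library, at 0.681 FPKM. Over the IL-1 family of ligands, inhibitors and receptors, 11 of 14 tested members rose and 1 (Il1b) fell. Of all genes, 36.3% rose and 44.0% fell at week 1 against week 0.

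Il17ra and Il17rc, the 2 chains of the receptor for IL-17A and IL-17F, also rose at week 1. Il17ra had 17.9 and 15.6 FPKM, against 4.01 and 4.67 at week 0, and Il17rc had 28.8 and 13.7 FPKM, against 2.98 and 4.48. Their ligands were low, with no library above 0.10 FPKM for Il17a and, for Il17f, a highest value of 1.02 in 1 week 0 library. Il6st, the gp130 chain, had 63.0 and 95.5 FPKM at week 1, against 26.6 and 33.3 at week 0. It rose by 1.35 (SE 0.29, limma adjusted p = 0.00233) and had the highest mean of the receptor subunits at week 0, with 43.5 and 61.3 FPKM in GS cells. Il6ra, the chain that binds IL-6, was lower, at 5.75 and 4.47 FPKM at week 1 against 3.53 and 3.47 at week 0, and at 6.59 and 6.57 in GS cells.

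The genes that fell at week 1 included the 2 most abundant members of week 0. Il4i1 had 0.610 and 0.165 FPKM at week 1, against 77.4 and 77.3 at week 0, and Il31 (chr5:123480157-123489489, minus strand), a ligand known for causing itch, had 0.476 and 1.41 FPKM at week 1, against 62.8 and 59.2 at week 0. Il4i1 fell by 5.84 (SE 0.17, limma adjusted p = 8.76e-09) and Il31 by 5.04 (SE 0.20, limma adjusted p = 7.42e-08). Both stand on DNA that other genes share, and the sources used here do not give the strand setting of the counting, so these values are uncertain. Of the 4080 exonic bases of Il4i1, 3423 overlap exons of Tbc1d17 on the opposite strand, a gene that had 47.2 and 36.3 FPKM at week 1 and 66.4 and 50.7 at week 0. Of the 1208 exonic bases of Il31, 48 overlap Lrrc43 on the opposite strand. That neighbour had 0.26 and 0.03 FPKM at week 1, against 80.0 and 76.5 at week 0, and so moved with Il31.

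Among the others that fell, Il17re, the receptor chain for IL-17C, had 0 and 0.118 FPKM at week 1, against 3.18 and 3.10 at week 0. Il9r, the receptor chain for IL-9, had 0.112 and 0.191 FPKM, against 3.97 and 2.40, and Il16 had 0.623 and 0.274 FPKM, against 3.11 and 2.96. Il10ra, the IL-10 receptor chain of blood cells, had 0.0378 and 0.169 FPKM at week 1, against 2.09 and 2.65 at week 0. Il1b, the IL-1 made by macrophages, had 1.82 and 2.46 FPKM at week 1, against 3.47 and 3.63 at week 0, so that it fell by 0.54 (SE 0.11, limma adjusted p = 0.00173); after quantile normalization the difference was 0.14 in the other direction (adjusted p = 0.225). By week 2 it had 0.0559 and 0.0644, and it was listed at 0 in both libraries of week 3 and of GS cells. Beside these falls, the markers of spermatocytes and spermatids (11 lower of 12) and of macrophages (9 lower of 12) fell as well, as given above. So did markers of Leydig cells (6 lower of 7, summed FPKM 74.6 to 81.54 at week 1, against 1538 to 1786 at week 0), of Sertoli cells (8 lower of 9, 279.8 to 282.6, against 533.5 to 535.3) and of endothelial cells (6 lower of 8, 13.03 to 13.39, against 34.79 to 40.12). Of the smooth muscle and myoid markers 5 of 8 were lower and 2 higher, with sums of 1316 to 1385 at week 1, against 1349 to 1698 at week 0. The lymphocyte and mast cell markers had 3 lower and 2 higher of 7 tested, with sums of 24.08 to 25.58 at week 1, against 69.8 to 78.9 at week 0. Their part in the result was not tested.

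**Figure D3:**
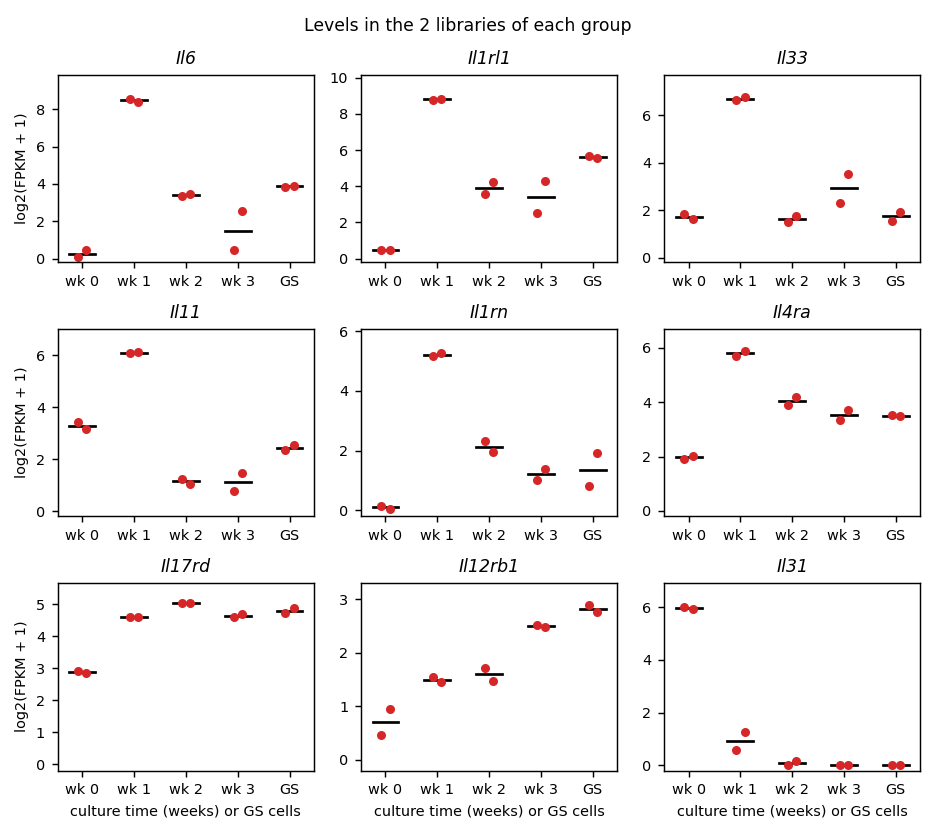
Levels of 9 members, as log2(FPKM + 1), at weeks 0 to 3 and in GS cells; each point is a library and each line the mean of the 2 libraries. Il6, Il1rl1, Il33, Il11, Il1rn and Il4ra peak at week 1, Il17rd is highest at week 2, Il12rb1 is highest in GS cells and Il31 is high at week 0 alone; the 2 week 3 libraries differ for Il6, Il1rl1 and Il33.

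At week 2 most of the members that had risen at week 1 were lower again. Against week 1, 28 of the 46 tested members fell at week 2 (60.9%) and 3 rose, where 27.4% of all genes fell, 28.2% rose and 55.6% were called. The median change was -0.83 for the members and 0.03 for all genes. After quantile normalization 9 members were higher and 26 lower (median of all genes 0.17), and after scaling to a common FPKM sum these counts were 7 and 26 (median 0.24). Of the ligands 12 of 16 fell, and of the IL-1 family 12 of 14. The 21 members that rose at week 1 and fell at week 2 were Il6, Il11, Il33, Il34, Il1a, Il1f6, Il1f9, Il7 and Il19 among ligands, Il1rn and Il13ra2 among inhibitors, and Il1rl1, Il1r1, Il1rap, Il1rl2, Il18rap, Il4ra, Il13ra1, Il10rb, Il17ra and Il17rc among receptors. The fall of Il13ra1 missed the threshold without week 1 replicate 2 or either week 2 library (adjusted p = 0.0584 to 0.0716). Both comparisons use the week 1 libraries, so a rise and a fall around that group are not independent. All 16 fibroblast and matrix markers also fell at week 2. Markers of smooth muscle and myoid cells (7 lower of 8, summed FPKM 88.66 to 96.91 at week 2, against 1316 to 1385 at week 1), of Sertoli cells (7 lower of 9, 20.23 to 20.58, against 279.8 to 282.6) and of Leydig cells (4 lower of 7, 4.10 to 5.04, against 74.6 to 81.54) fell as well. The part of these markers in the result was not tested.

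The 3 members that rose at week 2 were Il17rd, Il4i1 and Il18bp. Il17rd (chr14:27038941-27107286, plus strand), also known as Sef, encodes a membrane protein of the IL-17 receptor family that restrains FGF signalling. It had 6.52 and 6.22 FPKM at week 0, 23.1 and 23.3 in week 1, 32.1 and 31.9 in week 2, 23.1 and 24.7 in week 3, and 25.4 and 28.2 in GS cells. Every cultured library stood above FPKM 20, and replicates lay close together. Il17rd rose by 1.72 at week 1 against week 0 (SE 0.09, limma adjusted p = 3.76e-07) and by 0.45 at week 2 against week 1 (SE 0.09, limma adjusted p = 0.00349). It was 1.91 higher in GS cells than at week 0 (SE 0.09, limma adjusted p = 1.94e-07). These 3 calls held in all 18 alternative analyses. At week 3 against week 2 it fell by 0.41 (SE 0.09, limma adjusted p = 0.0168), a call lost without either week 2 library or week 3 replicate 1 (adjusted p = 0.0865 to 0.0905). The markers of undifferentiated spermatogonia rose too, 14 of 17 at week 1, and their part in the result was not tested.

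Between week 2 and week 3 the share of members that moved was close to that of all genes. Of the 46, 5 rose and 5 fell (10.9% each), where 10.6% of all genes rose, 10.7% fell and 21.3% were called. These counts were 1 and 0 without week 2 replicate 2 (6 lower at an unadjusted p under 0.05 in limma), 3 and 1 without week 2 replicate 1, 4 and 1 without week 3 replicate 1, and 3 and 7 without week 3 replicate 2. With any 1 library of week 0 or week 1 left out, 3 members were lower. Il15, a growth factor for lymphocytes, had 1.63 and 1.65 FPKM at week 3, against 0.382 and 0.491 at week 2, and its rise of 0.88 (SE 0.12, limma adjusted p = 0.00186) was the only one of the 10 calls that held in every alternative analysis that tested it (17). Il12rb1, a receptor chain shared by IL-12 and IL-23, had 4.75 and 4.60 FPKM at week 3, against 2.29 and 1.79 at week 2. It rose by 0.91 (SE 0.17, limma adjusted p = 0.00879), a call lost in 1 of 18 alternatives, without week 2 replicate 2 (difference 0.79, adjusted p = 0.0632). Il18 rose by 0.75 (SE 0.15, limma adjusted p = 0.00962) and Il10ra by 0.56 (SE 0.12, limma adjusted p = 0.0126), each at a mean FPKM under 2. Il15ra fell by 0.89 (SE 0.23, limma adjusted p = 0.0293). Il1rap fell by 0.51 (SE 0.15, limma adjusted p = 0.0448). Il13ra2 fell by 0.42 (SE 0.10, limma adjusted p = 0.0207). The calls of these 5 genes also rest on single libraries. Il18 missed the threshold without either week 2 library or week 3 replicate 2 (adjusted p = 0.0513 to 0.0585), Il10ra without week 2 replicate 2 or week 3 replicate 1 (0.0841 and 0.0778), Il15ra without week 2 replicate 2 or either week 3 library (0.0824 to 0.161), Il13ra2 without either week 2 library or week 3 replicate 1 (0.0627 to 0.13), and Il1rap in 9 of the 10 cases that left out a library.

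The 2 week 3 libraries differed for the genes that had peaked at week 1. Of those 21 members, 17 were higher and 3 lower in replicate 2, with a median difference of 0.34 on the log2 scale, against 0 for all genes. In the other groups the same count was 10 and 8 in week 0, 11 and 10 in week 1, 10 and 10 in week 2, and 14 and 6 in GS cells. The fibroblast and matrix markers summed to 435.8 FPKM in week 3 replicate 1 and 873.4 in replicate 2, and the smooth muscle and myoid markers to 37.11 and 105.2. Their part in the difference was not tested. Several week 3 results rest on 1 of these libraries.

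**Figure D4:**
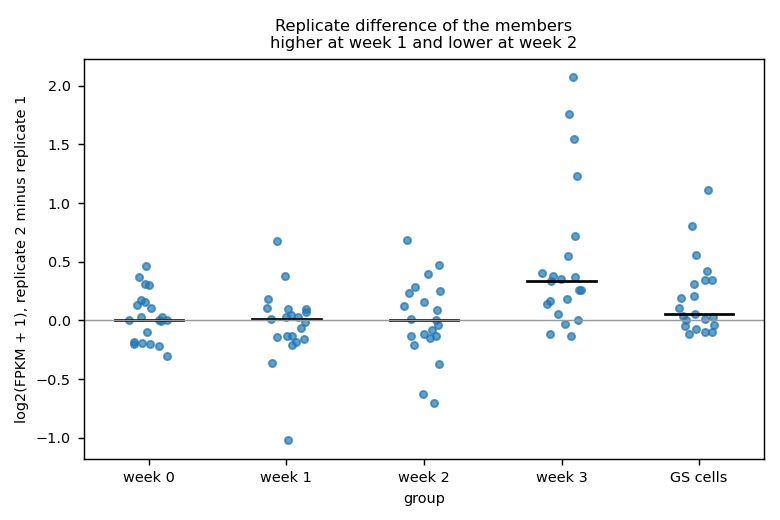
Difference between the 2 libraries of each group (replicate 2 minus replicate 1, on the log2(FPKM + 1) scale) for the 21 members that rose at week 1 and fell at week 2; each point is a member and each line the median. The median is 0.34 at week 3 and 0.06 in GS cells, and lies between 0 and 0.02 in the other groups.

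Il6 fell by 1.93 at week 3 against week 2 (SE 0.54, limma adjusted p = 0.0381). The difference was -0.89 without week 3 replicate 1 and -2.97 without replicate 2, and the call was lost in 11 of 18 alternatives, among them each that left out 1 of the 8 libraries of other groups (adjusted p = 0.0554 to 0.143). Il33 rose by 1.29 (SE 0.35, limma adjusted p = 0.0338), by 1.90 without week 3 replicate 1 (adjusted p = 0.0033), and the difference without replicate 2 was 0.67 (adjusted p = 0.0732). Its call was also lost without either week 0 or either week 2 library (adjusted p = 0.0842 to 0.15). Il1rl1 did not pass the test, with a difference of -0.52 that was 0.36 without replicate 1 and -1.41 without replicate 2 (adjusted p = 0.0126).

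In GS cells against week 3, 6 of the 46 members were higher (13.0%) and 4 lower (8.7%), beside 11.7% and 10.8% of all genes, of which 22.5% were called. Without either GS library 1 member was higher, and without GS replicate 1 or week 3 replicate 2, 2 were lower. Il6 was 2.38 higher (SE 0.54, limma adjusted p = 0.0172), a difference of 1.34 without week 3 replicate 1 and 3.41 without replicate 2. Il1rl1 was 2.20 higher (SE 0.48, limma adjusted p = 0.0151), a difference of 1.32 and 3.08 without the same libraries. Both GS libraries lay above both week 3 libraries for these 2 genes, though the calls were lost in 7 (Il6) and 6 (Il1rl1) of 18 alternatives, including those without either week 0 or either GS library (adjusted p = 0.0514 to 0.0782). Il33 fell by 1.19 (SE 0.35, limma adjusted p = 0.0436), and the difference was -0.57 without week 3 replicate 2 (adjusted p = 0.115); this call held, of the 10 cases that left out a library, in 1, without week 3 replicate 1. Il11 was 1.32 higher (SE 0.23, limma adjusted p = 0.00652). Il10rb, a chain shared by receptors of the IL-10 family, was 0.60 higher (SE 0.16, limma adjusted p = 0.0326) and Il18 fell by 0.59 (SE 0.15, limma adjusted p = 0.0248). Il10rb missed the threshold without either week 3 or either GS library (adjusted p = 0.0792 to 0.134), and Il18 without either week 3 library or GS replicate 1 (0.0515 to 0.145). Of the 9 calls tried under other settings, 2 held in all 17 alternatives that tested them. Il15 had 0 and 0.103 FPKM in GS cells, against 1.63 and 1.65 at week 3, and fell by 1.33 (SE 0.12, limma adjusted p = 0.000384). Il10ra had 0.0548 and 0.0335 FPKM in GS cells, against 1.08 and 0.901 at week 3, and fell by 0.93 (SE 0.12, limma adjusted p = 0.00158).

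Set against the starting cells, GS cells had 17 members higher and 17 lower (37.0% each), beside 34.7% and 45.9% of all genes, of which 80.6% were called. The median change was 0.07 for the members and -0.21 for all genes. After quantile normalization 25 members were higher and 13 lower, and the median of all genes was 0.42. Among receptors, Il13ra1 had 15.1 and 19.4 FPKM in GS cells, against 2.34 and 1.94 at week 0, a rise of 2.53 (SE 0.17, limma adjusted p = 1.44e-06). Il12rb1 had 6.38 and 5.73 FPKM, against 0.380 and 0.919, a rise of 2.11 (SE 0.17, limma adjusted p = 5.92e-06). Il4ra was 1.53 higher, Il1r2 1.83 higher and Il6st 0.77 higher (limma adjusted p = 0.0343), the last a call lost without either week 0 library or GS replicate 2 (adjusted p = 0.0807 to 0.209). Il6 was 3.62 higher (SE 0.54, limma adjusted p = 0.000275), at 13.5 and 13.6 FPKM against 0.0451 and 0.351. On the other side, Il31 fell by 5.95 (SE 0.20, limma adjusted p = 2.73e-08) and was listed at 0 in both GS libraries. Il4i1 fell by 4.91, Il1b fell by 2.19 and Il17re fell by 1.99. Il11 fell by 0.85 (limma adjusted p = 0.00871), Il18 fell by 0.86 and Il34 fell by 0.78, but these 3 changed direction after quantile normalization, to differences of 0.0213, 0.17 and 0.29. Il11 also missed the threshold without week 0 replicate 1 or GS replicate 1 (adjusted p = 0.0832 and 0.0507), and Il34 without either week 0 library or GS replicate 1 (0.0827 to 0.223). Il2rg, the common gamma chain of lymphocyte receptors, reached 1.54 FPKM in 1 week 1 library and at most 1.04 in the others. It passed no test on the values as deposited, but was 0.97 higher in GS cells than at week 0 after quantile normalization (adjusted p = 0.00866). Without week 1 replicate 1 it was 0.69 higher at week 1 than at week 0 (adjusted p = 0.011) and fell by 0.79 at week 2.

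Ligands and receptors can be set side by side in GS cells by FPKM, a level per transcript length. Fibroblast and matrix markers summed to 796.8 to 820.6 FPKM in the same libraries. A ligand and its receptor may therefore come from different cells, which was not tested. Transcripts of IL-6 and of both its receptor chains were present, with Il6 at 13.6 ± 0.0691, Il6ra at 6.59 and 6.57 and Il6st at 52.4 ± 12.6 FPKM (SD, n = 2). Transcripts of IL-33 and of its receptor gene were present at 2.34 ± 0.554 (Il33) and 47.4 ± 2.30 FPKM (Il1rl1). Il1rl1 has 5 annotated transcripts, which a value per gene does not tell apart. For IL-1, the receptor chains Il1r1 and Il1rap were present at 3.89 and 3.64 (Il1r1) and 9.88 and 10.2 FPKM (Il1rap), while Il1a was at most 0.180 and Il1b was listed at 0. For IL-34, the ligand had 1.02 and 1.97 FPKM, while its receptor Csf1r had a mean of 0.0339, against 13.3 at week 0, and fell by 3.78 (SE 0.17, limma adjusted p = 1.19e-07).

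The relay of these signals changed in part. Of 29 genes between IL-1 or IL-17 receptors and NF-kappa B, 14 rose and 8 fell at week 1 against week 0 (median 0.64, against -0.14 for all genes, of which 36.3% rose and 44.0% fell). Zc3h12a, which degrades the mRNA of Il6 and other cytokines, had a mean of 49.5 FPKM at week 1 and 2.07 at week 0 (rise of 4.04). Nfkb1, a subunit of NF-kappa B, had 84.4 and 11.0 (rise of 2.83), and Nfkbiz, a cofactor for IL-6 and other targets, 63.3 and 10.8 (rise of 2.45). Peli2, a ubiquitin ligase that acts with IRAK kinases, had 8.13 at week 1 and 271 at week 0 (it fell by 4.90). Of 24 genes of JAK and STAT signalling, 14 rose and 4 fell (median 0.74). Jak1, the kinase shared by gp130 and IL-4 receptors, had 138.9 FPKM at week 1 and 30.8 at week 0 (rise of 2.14), while Stat4, a factor used by IL-12, had 0.179 and 139 (it fell by 6.90). Stat3, the main factor of IL-6, was at 150.7 FPKM in GS cells and 29.9 at week 0 (rise of 2.32, limma adjusted p = 2.09e-06).

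Of 8 tested genes that process IL-1 and IL-18, 3 rose and 2 fell at week 1 against week 0, where 36.3% of all genes rose and 44.0% fell. In GS cells Aim2, a DNA sensor of the inflammasome, had 32.8 FPKM, against 9.44 at week 3 and 0.941 at week 0, and Pycard, the inflammasome adaptor, had 30.4, against 11.3 and 3.76. Casp4, a caspase that cleaves gasdermin D, had 7.89, against 2.54 and 1.03. These 3 passed the limma test in both comparisons, whereas Il1b, whose product the inflammasome releases, was listed at 0 in both GS libraries.

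The families also hold cytokines and receptors under other names. Of 21 tested at week 1 against week 0, 11 rose and 6 fell (median 0.94). Of all genes, 36.3% rose and 44.0% fell in this comparison (median -0.14). Lif, an IL-6 relative, had a mean of 125.3 FPKM at week 1 and 1.34 at week 0 (rise of 5.76). Tslp, an IL-7 relative, had 44.2 and 0.377 (rise of 5.04), Clcf1 102.9 and 2.81 (rise of 4.77), and Csf1, the other ligand of the IL-34 receptor, 279.9 and 12.5 (rise of 4.38). At week 2 Lif, Tslp and Csf1 fell, to 2.77, 1.14 and 13.6 FPKM. In GS cells Lif was at 8.75 FPKM, against 0.272 at week 3 (rise of 2.94).

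Genes known as targets of IL-1, IL-6 and IL-17 were high at week 1 as well. Some of them, Zc3h12a and Nfkbiz included, also belong to the lists above, so the lists share genes. All 22 rose at week 1 against week 0 (median 4.49) and all 22 fell at week 2 against week 1 (median -3.13). Of all genes, 36.3% rose in the one comparison and 27.4% fell in the other. The list was chosen with earlier results of these data known, so its counts are a description and not a test. At week 3 against week 2, 16 fell, where 10.7% of all genes fell. In GS cells against week 3, 12 were higher and 1 lower, beside 11.7% and 10.8% of all genes. Saa3, an acute phase protein, had a mean of 5732 FPKM at week 1 and 0.543 at week 0, Timp1, an inhibitor of matrix proteases, 3672 and 3.80, and Hp, haptoglobin, 438.1 and 0.119. Mmp3, a matrix protease, had 1276 at week 1 and was listed at 0 at week 0. Several of these genes are also made by fibroblasts, whose 16 markers moved in the same directions at weeks 1 and 2, and the part of those cells in the result was not tested.

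The other 36 members did not reach FPKM 1 in 2 libraries. Il3, Il1f8 and Il11ra2 were listed at 0 in all 10 libraries. Il11ra2 is a near copy of Il11ra1 on chromosome 4, so the value of Il11ra1 is uncertain; it had 12.7 and 16.1 FPKM at week 1 and 13.1 and 15.7 at week 0. A library at FPKM 0.5 or more was seen for 14 of the 36, namely Il10, Il12a, Il13, Il17c, Il17f, Il18r1, Il1f5, Il22ra1, Il23a, Il24, Il27ra, Il2rb, Il7r and Il9. Il24, a relative of IL-10, had 0.449 and 2.95 FPKM at week 1 and was listed at 0 in all other libraries. Il27ra had 0.608 and 1.60 FPKM at week 1, while Il13 (1.25 and 0.946) and Il9 (0.866 and 1.18) were near FPKM 1 at week 0. At the depth of these libraries a transcript of 2200 nucleotides at FPKM 1 had 20.7 to 42.1 reads.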

How the data were processed

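Poly(A) RNA of 10 libraries (5 groups of 2) was sequenced with a stranded kit, per the labels' protocols. The authors deposited normalized FPKM values, 1 column per library. Per the submitters' processing notes, the tools were HISAT2 2.1.0, Bowtie2 2.3.4.1, Cufflinks 2.2.1 with Cuffdiff, bcl2fastq 2.17.1.14 and cutadapt 1.16, and the build mm10. The sources used here do not give the annotation, strand setting, filters or normalization method. Reads shared between copies or overlapping genes may be split wrongly, and 23 members share exonic bases with another gene.

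Identifiers were matched to GENCODE M21 (GRCm38; 21951 of 21969 found), and coordinates are 1-based. Depth was read from the steps of low FPKM values in 2268 genes with a lone transcript, with an assumed fragment length of 200 nucleotides subtracted. At the depth taken, 95.71% to 98.76% were whole reads within 0.15. A high share was a condition for taking a depth, so these shares do not test it. Since transcript lengths of most genes rest on an unnamed annotation, no count model was run.

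Values were analysed as log2(FPKM + 1) for the 15671 genes that reached FPKM 1 in at least 2 libraries. A single limma model (limma 3.58.1, R 4.3.3) held all 5 groups (empirical Bayes with trend, two-sided, Benjamini-Hochberg over all genes per comparison, called at adjusted p under 0.05). The procedure was tested on simulated data. Alternatives were a pseudocount of 0.1, other filters, quantile or sum scaling, fits of 2 groups, no trend, a replicate block and each library left out.

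Full statistics are given for members among the 8 largest called changes of any comparison and for Il17rd, Il6st, Il2rg and Il1rn. Genes of the pathway lists are named among the 4 largest called changes (1 such gene is not reported here), and members below the filter from FPKM 0.5 in a library. Il4, Il17a and genes overlapping a member were named after their values were seen, as were members given only by their levels. Members, lists and rules were chosen with earlier results of these data known.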

Additional observations from a re-analysis of the deposited data

How the results depend on the processing

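Of 2140 alternative values for 120 results on named members, 2001 kept direction and side of the threshold, 114 lost the call, 21 gained one and 4 changed direction. The last arose after quantile normalization and were Il1b at week 1 against week 0 (0.14) and, in GS cells against week 0, Il11 (0.0213), Il18 (0.17) and Il34 (0.29). For counts of members at week 1 against week 0, the 13 lower became 20 with no filter, 6 with a filter on the mean FPKM and 8 after quantile normalization. At week 2 against week 1 the 3 higher became 5 with a pseudocount of 0.1, 9 after quantile normalization and 7 after scaling to a common sum. At week 3 against week 2 the 5 higher became 3 with the mean filter, and the 5 lower became 3 with a pseudocount of 0.1, 2 with no filter and 1 in a fit of the 2 groups alone. In GS cells against week 3 the 6 higher became 3 with no filter and 1 in a fit of the 2 groups alone, and the 4 lower became 2 with the mean filter and 2 in a fit of the 2 groups alone. In GS cells against week 0 the 17 lower became 10 with the mean filter. A stricter or looser filter changes how many members are tested; otherwise the cause was not tested.

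With 1 library left out at a time, week 3 against week 2 gave 1 to 6 higher and 0 to 7 lower, and GS cells against week 3 gave 1 to 7 higher and 2 to 4 lower. The 0 arose in limma without week 2 replicate 2, where 6 members were lower at an unadjusted p under 0.05; without that library 1 was higher. The 7 lower arose without week 3 replicate 2, and the 1 higher in GS cells without either GS library. The other counts ranged over 23 to 26 higher and 13 to 14 lower (week 1 against week 0), 2 to 4 and 24 to 28 (week 2 against week 1), and 15 to 17 and 15 to 17 (GS cells against week 0). A lone library was assumed to vary like the other groups.

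Over all tested genes, same-numbered libraries deviated with correlations of -0.05 to 0.05, so no pairing by replicate number was seen. A pairing that touches few genes would not show in such correlations and is not excluded. With a replicate block the counts were the same except for GS cells against week 3, where 5 in place of 6 were higher; at week 3 against week 2 Il1rap lost its call (adjusted p = 0.0637) and Il4ra gained one (0.0303). Each group had 2 libraries, and a member near FPKM 1 with a transcript of 2200 nucleotides rests on 20.7 to 42.1 reads, fewer if shorter.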
